A study of Mus musculus with 5 samples.

Results

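The small proline-rich genes, a family of building blocks of the squamous cell surface, were followed in the esophagus of mice that make the type 2 cytokine IL-13 on demand. The family was taken as 10 genes, Sprr1a, Sprr1b, Sprr2b, Sprr2d, Sprr2e, Sprr2f, Sprr2h, Sprr2i, Sprr2k and Sprr3, and every probe set of the Mouse Genome 430 2.0 array whose symbol is or includes one of them was kept. Of the 45101 probe sets, 8 were kept, 1 for each of 8 genes. None of the 8 carried the symbol of a second gene. The symbols of Sprr2b and Sprr2e were on no probe set of the annotation used, so both were not analysed here.

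All arrays came from FVB/N mice carrying the CC10-rtta/teton-IL-13 transgenes, aged 3 to 4 months, in which the CC10 promoter, active in airway club cells, drives an activator of the IL-13 transgene that works in the presence of doxycycline. The Dox group (n = 3 arrays) was from mice fed doxycycline and the NoDox group (n = 2 arrays) from transgenic mice on regular food, and mice without the transgenes were not analysed here. Each value is a ratio of the signal of a probe set to its mean in the 2 NoDox arrays. Ratios hold no level, so no gene is set against another in abundance. Whether the arrays hold separate animals is not in the labels. The p-values then rest on how far these samples spread, which may be technical, and on a variance borrowed from other probe sets. The number of arrays limits the precision. In whole tissue, fewer cells of a type and less RNA per cell cannot be told apart.

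Small proline-rich proteins are short cytosolic proteins, rich in proline, that transglutaminases cross-link to one another and to loricrin and involucrin under the membrane of differentiating squamous cells. The result is the cornified envelope, the tough shell of the surface cells of skin, mouth, forestomach and esophagus. Their genes lie together in the epidermal differentiation complex. Sprr3, also called esophagin, is abundant in normal esophagus, Sprr1a and Sprr1b (cornifins) mark differentiating and stressed squamous cells, and the Sprr2 genes are known to respond to inflammation in several epithelia.

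The sequences upstream of the genes are shown because a motif in them was in every Sprr2 member and in no other member. For all 10 members the RefSeq promoter table (GRCm38.p6) held the 250 bases before the gene start. Stretches around an octamer, the recognition sequence of POU-domain factors such as Pou2f3 and Pou3f1, are given for the 7 Sprr2 members, 5′ to 3′ on the plus strand of chromosome 3, with the octamer in capitals.
Sprr2i, chr3:92407853-92407920: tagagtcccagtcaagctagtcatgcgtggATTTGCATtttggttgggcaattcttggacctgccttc
Sprr2f, chr3:92365045-92365112: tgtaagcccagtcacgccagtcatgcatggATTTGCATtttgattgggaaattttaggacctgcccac
Sprr2h, chr3:92385546-92385613: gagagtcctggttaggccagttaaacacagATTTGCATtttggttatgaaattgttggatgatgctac
Sprr2d, chr3:92339002-92339069: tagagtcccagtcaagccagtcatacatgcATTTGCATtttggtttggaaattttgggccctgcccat
Sprr2k, chr3:92432443-92432510: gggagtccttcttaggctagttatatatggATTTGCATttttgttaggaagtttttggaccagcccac
Sprr2b, chr3:92316567-92316634: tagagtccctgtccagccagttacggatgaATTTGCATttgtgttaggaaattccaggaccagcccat
Sprr2e, chr3:92352005-92352072: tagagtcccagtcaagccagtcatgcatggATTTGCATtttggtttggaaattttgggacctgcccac

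The octamer (ATGCAAAT on either strand) was in 7 of 7 Sprr2 members, always starting between 112 and 108 bases before the gene start. It was in none of the windows of Sprr1a, Sprr1b and Sprr3, nor in those of Sprr2a1, Sprr2a2, Sprr2a3 and Sprr4. Of 27018 promoter windows of that length, 1.61% held it. An AP-1 sequence (TGANTCA, its own reverse complement but for the middle base) was in 9 of 10 members, all but Sprr3, against 6.87% of all windows. Like the octamer, it was in none of the windows of Sprr2a1, Sprr2a2, Sprr2a3 and Sprr4. In the Sprr2 members it lay 182 to 198 bases before the start. Both motifs together were in 0.170% of all windows. The windows of the Sprr2 members are alike in sequence (60.1% to 89.3% identical), so these counts are not of independent windows. The 10 letters TTCNNNNGAA, the spacing bound by STAT6, were in 0 of 10 members and in 5.86% of all windows, and the shorter TTCNNNGAA was in 0 of 10 and 7.18%. A match is a description of letters and not a binding site. No match says only that these letters are not in this window. A link between the motifs and the fold changes given below was not tested. The Ets core AGGAAG was in 3 of 10 members (Sprr2f, Sprr2k and Sprr3) and 29.2% of all windows, and the Klf sequence GGGNGTG in 0 of 10 and 26.0%.

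The whole 250 bases are shown for Sprr2i, whose ratios were the highest, and for Sprr3, which has neither motif. Capitals mark the AP-1 sequence and the octamer.
Sprr2i, chr3:92407741-92407990, plus strand: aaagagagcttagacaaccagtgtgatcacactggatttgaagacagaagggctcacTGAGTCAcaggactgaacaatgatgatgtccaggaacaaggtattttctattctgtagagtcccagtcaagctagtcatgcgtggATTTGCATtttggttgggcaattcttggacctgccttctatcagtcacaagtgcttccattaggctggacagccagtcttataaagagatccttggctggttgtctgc
Sprr3, chr3:92458721-92458970, minus strand: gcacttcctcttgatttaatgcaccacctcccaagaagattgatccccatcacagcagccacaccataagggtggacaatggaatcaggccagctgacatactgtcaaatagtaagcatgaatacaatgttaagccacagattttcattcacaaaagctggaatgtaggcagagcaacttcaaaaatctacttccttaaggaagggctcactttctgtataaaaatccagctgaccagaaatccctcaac
Aligned end to end, the upstream windows of the Sprr2 members were 60.1% to 89.3% identical (21 pairs), and a Sprr2 window was 47.7% to 55.3% identical to one of Sprr1a, Sprr1b or Sprr3 (21 pairs).

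The comparison asked how the members differ between esophagus of doxycycline-fed and normally fed mice. In Dox, 5 of the 8 members rose, all of them Sprr2 genes, with Sprr2i 22.7-fold, Sprr2f 7.44-fold, Sprr2h 7.28-fold, Sprr2d 6.54-fold and Sprr2k 2.76-fold higher. Sprr1a, Sprr1b and Sprr3 did not pass the test. At adjusted p under 0.05 (limma with Benjamini-Hochberg adjustment over 45034 probe sets), 0.611% of all probe sets were higher and 0.548% lower, 1.16% in either direction. The fit used a variance trend on the signal level. With no trend, or with the trend on the mean log2 ratio, 0 of the 8 members passed. None of the 8 members was lower, though Sprr3 had an unadjusted p of 0.0489 in limma. The median log2 fold change was 2.09 over the 8 members and -0.08 over all probe sets.

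Sprr2i, an envelope precursor of the Sprr2 group, had ratios of 31.6, 15.5 and 23.2 in the Dox arrays and 0.870 and 1.13 in the NoDox arrays. All Dox arrays were far above both NoDox arrays, with Dox replicate 1 highest and Dox replicate 2 lowest. The log2 fold change was 4.50 ± 0.29 (SE, 3 Dox and 2 NoDox arrays, limma adjusted p = 0.000179), with a 95% interval of 3.85 to 5.16. Among all probe sets it stood at percentile 99.9 of the fold changes. Sprr2i lost its call with no variance trend (limma adjusted p = 0.125) and with the trend on the mean log2 ratio (0.663).

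Sprr2f, which is known from uterus and other epithelia, had ratios of 11.4, 5.45 and 6.55 in the Dox arrays and 0.910 and 1.09 in the NoDox arrays. Dox replicate 1 was 2.09 times Dox replicate 2, a wider spread than that of Sprr2h or Sprr2d, and the groups did not overlap. Its log2 fold change was 2.90 ± 0.29 (limma adjusted p = 0.00209). The call was lost without NoDox replicate 1 (limma adjusted p = 0.115) and without NoDox replicate 2 (0.0688).

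Sprr2h had ratios of 8.84, 5.92 and 7.28 in the Dox arrays and 0.905 and 1.10 in the NoDox arrays. The groups did not overlap, and the log2 fold change was 2.86 ± 0.20 (limma adjusted p = 0.000272). Sprr2h lost its call with no variance trend (limma adjusted p = 0.140) and with the trend on the mean log2 ratio (0.538). Its probe set, 1422240_s_at, has the suffix that Affymetrix gives to probes matching more than one transcript, so signal from other Sprr2 genes cannot be told apart from that of Sprr2h. The other 7 member probe sets have the plain suffix of a unique design, but the Sprr2 genes are close in sequence and the probe sequences were not used here, so which Sprr2 gene gave a signal is uncertain for each.

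Sprr2d had ratios of 8.45, 5.51 and 5.80 in the Dox arrays and 0.853 and 1.15 in the NoDox arrays. Dox replicate 1 was again highest and the groups did not overlap. The log2 fold change was 2.71 ± 0.22 (limma adjusted p = 0.000738). Without NoDox replicate 1 it was 2.50 (limma adjusted p = 0.0505).

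Sprr2k had ratios of 3.14, 2.96 and 2.12 in the Dox arrays and 1.22 and 0.783 in the NoDox arrays. The groups did not overlap, but the 2 NoDox arrays lay farther apart than for any other member, by 0.64 on the log2 scale. The log2 fold change was 1.47 ± 0.23 (limma adjusted p = 0.0218), and the call was lost without Dox replicate 1 (limma adjusted p = 0.0610), NoDox replicate 1 (0.122) or NoDox replicate 2 (0.299). It was also lost with quantile normalization (limma adjusted p = 0.380).

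**Figure D1:**
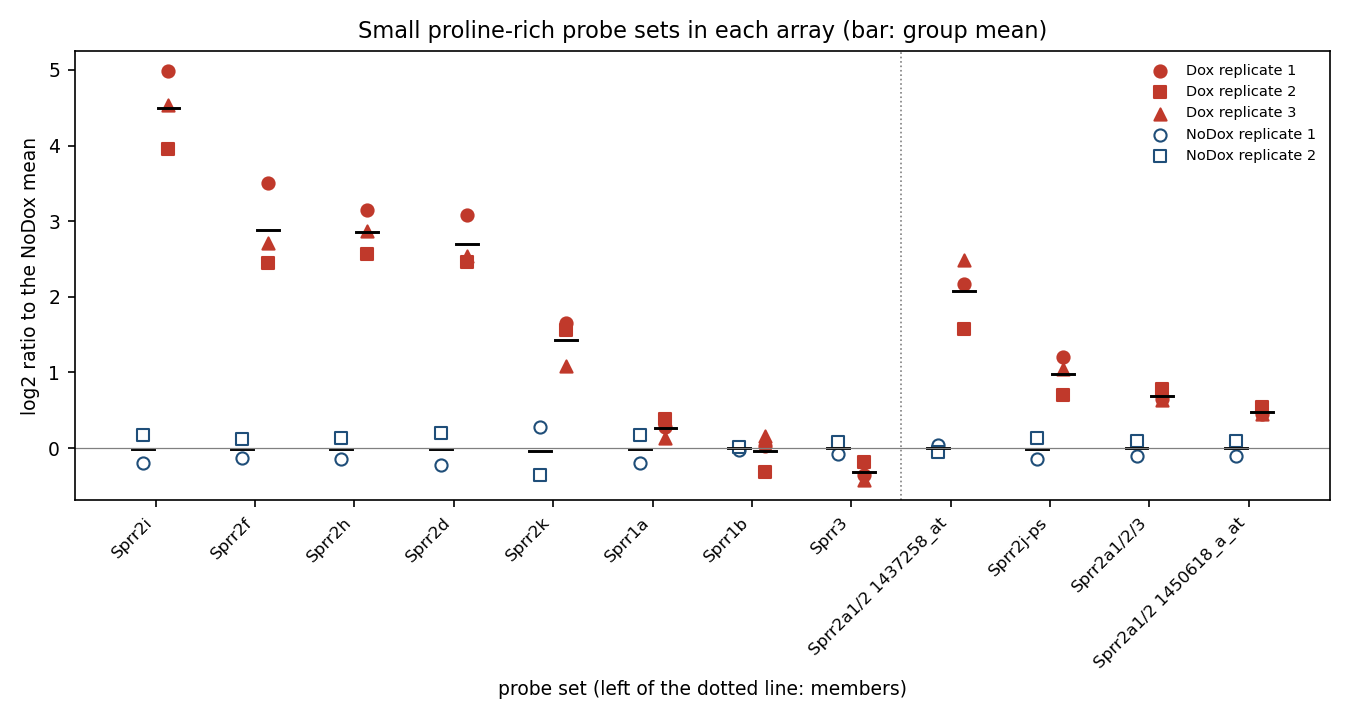
Log2 ratio to the NoDox mean (vertical axis) of each small proline-rich probe set (horizontal axis) in the 3 Dox arrays (filled) and 2 NoDox arrays (open), with a bar at each group mean. For Sprr2i to Sprr2k all Dox points lie above both NoDox points, while those of Sprr1a and Sprr1b overlap them and those of Sprr3 lie just below.

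Sprr1a, a cornifin also known as a stress-induced gene, had ratios of 1.21, 1.30 and 1.09 in the Dox arrays and 0.871 and 1.13 in the NoDox arrays. The lowest Dox array lay below the higher NoDox array. Its log2 fold change of 0.28 ± 0.16 did not pass the test (limma adjusted p = 0.490), and the 95% interval was -0.08 to 0.63. Sprr1b, the other cornifin, had ratios of 1.02, 0.802 and 1.12 in the Dox arrays and 0.986 and 1.01 in the NoDox arrays. The Dox arrays lay on both sides of the NoDox arrays, and the log2 fold change was -0.04 ± 0.16 (limma adjusted p = 0.941, 95% interval -0.41 to 0.33), with the sign turned to 0.040 by median centring of the arrays, 0.030 by quantile normalization and 0.068 by dividing out each array's factor. Sprr3 had ratios of 0.782, 0.882 and 0.748 in the Dox arrays and 0.946 and 1.05 in the NoDox arrays. All Dox arrays lay below both NoDox arrays, as for 19.7% of all probe sets, and the log2 fold change of -0.32 ± 0.14 did not pass the test (limma adjusted p = 0.350, 95% interval -0.63 to -0.00196). In this fit the interval of Sprr3 reached no lower than -0.63 on the log2 scale, and that of Sprr1a stayed below the 1.47 measured for Sprr2k. Both intervals rest on the variance trend. With no trend the SE was 0.19 for Sprr3 and 0.21 for Sprr1a, so a larger fall or rise is not excluded.

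The order of the arrays was shared by most but not all Sprr2 members. Sprr2i, Sprr2f, Sprr2h and Sprr2d were lowest among the Dox arrays in Dox replicate 2 and lower in NoDox replicate 1 than in NoDox replicate 2, whereas Sprr2k was lowest in Dox replicate 3 and lower in NoDox replicate 2. The mean log2 ratio of the 5 Sprr2 members was 3.27, 2.60 and 2.75 in the Dox arrays and -0.09 and 0.06 in the NoDox arrays. For Sprr1a, Sprr1b and Sprr3 the mean was -0.02, -0.04 and -0.04 in the Dox arrays and -0.10 and 0.09 in the NoDox arrays. All 5 Sprr2 members had their highest ratio in Dox replicate 1, while of the other 3 members 2 had it in Dox replicate 2 and 1 in Dox replicate 3. All Dox arrays were above both NoDox arrays in 5 of 8 members, against 12.4% of all probe sets. Differences between single members were not tested.

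The members are compared here in order of fold change. That order was taken from these same arrays, so a positive mean difference is given by the ordering, and only the size and spread of each difference are described. Sprr2i exceeded Sprr2f, the next, by 1.47, 1.51 and 1.82 on the log2 scale in the Dox arrays, and the same difference was -0.06 and 0.05 in the NoDox arrays. Sprr2f and Sprr2h were not ordered, since their difference was 0.37, -0.12 and -0.15. Sprr2h exceeded Sprr2d by 0.06, 0.10 and 0.33 in the Dox arrays, and the NoDox difference of -0.07 to 0.08 overlapped that range. Sprr2d exceeded Sprr2k by 1.43, 0.90 and 1.45, beyond the NoDox range of -0.51 to 0.55. Sprr2k exceeded Sprr1a by 1.37, 1.18 and 0.96, beyond the NoDox range of -0.53 to 0.48. Sprr1a exceeded Sprr3 by 0.63, 0.56 and 0.55 in the Dox arrays, beyond the NoDox range of -0.12 to 0.10, while the place of Sprr1b beside either of them changed between Dox arrays. The NoDox differences are centred by construction, since each probe set was divided by its NoDox mean, and rest on 2 arrays. Their range is therefore a weak measure of spread and no test of the order. All differences are of ratios to the NoDox mean, not of RNA amount.

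Other Sprr genes on the array carried the pattern in part. Sprr2j-ps, a transcribed pseudogene between Sprr2i and Sprr2k, had ratios of 2.30, 1.63 and 2.07 in the Dox arrays and 0.903 and 1.10 in the NoDox arrays, and rose by 0.99 ± 0.18 on the log2 scale (limma adjusted p = 0.0379). With single arrays left out, that call was kept without Dox replicate 2 and lost in the other fits: the limma adjusted p was 0.0787 without Dox replicate 1, 0.153 without Dox replicate 3, 0.410 without NoDox replicate 1 and 0.270 without NoDox replicate 2. It was also lost with quantile normalization (limma adjusted p = 0.396).

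The near-identical Sprr2a copies share 3 probe sets, which differed in size. Probe set 1437258_at, shared by Sprr2a1 and Sprr2a2, had ratios of 4.51, 2.98 and 5.60 in the Dox arrays and 1.03 and 0.969 in the NoDox arrays, and rose by 2.08 ± 0.25 (limma adjusted p = 0.00594). Here Dox replicate 3 was highest, not Dox replicate 1. The call was lost without NoDox replicate 1 (limma adjusted p = 0.170) or NoDox replicate 2 (0.175). Probe set 1439016_x_at, shared by Sprr2a1, Sprr2a2 and Sprr2a3, was at 0.69 ± 0.14 (limma adjusted p = 0.0533), with ratios of 1.56 to 1.71 in Dox. It passed the threshold under 5 alternatives, with limma adjusted p = 0.0385 for median centring of the arrays, 0.0369 for levels above the lower quartile, 0.0323 for array weights, 0.0380 for the replicate block and 0.0318 with each array's factor divided out. Probe set 1450618_a_at, again of Sprr2a1 and Sprr2a2, was at 0.48 ± 0.14 (limma adjusted p = 0.148), with ratios of 1.36 to 1.46 in Dox. The 3 probe sets thus disagree in size, and in each of them all Dox arrays lay above both NoDox arrays. The upstream windows of the Sprr2a copies held neither the octamer nor the AP-1 sequence. Those of Sprr1a and Sprr1b, which did not pass the test, held the AP-1 sequence.

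On chromosome 3 of the RefSeq assembly the genes start with the Sprr2a copies, Sprr2b, Sprr2c-ps, Sprr2d, Sprr2e, Sprr2f, Sprr2g and Sprr2h. Then follow Sprr2i, Sprr2j-ps, Sprr2k, Sprr1b, Sprr3, Sprr1a and Sprr4. The 5 risen members and Sprr2j-ps lie from Sprr2d to Sprr2k, with Sprr2e and Sprr2g, which have no named probe set, among them. Sprr2i and Sprr2j-ps, 4.50 and 0.99 on the log2 scale, are side by side. Sprr2k and Sprr1b, at 1.47 and -0.04, are the neighbours at the end of the Sprr2 row. Genes with no named probe set lie between the measured ones.

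**Figure D2:**
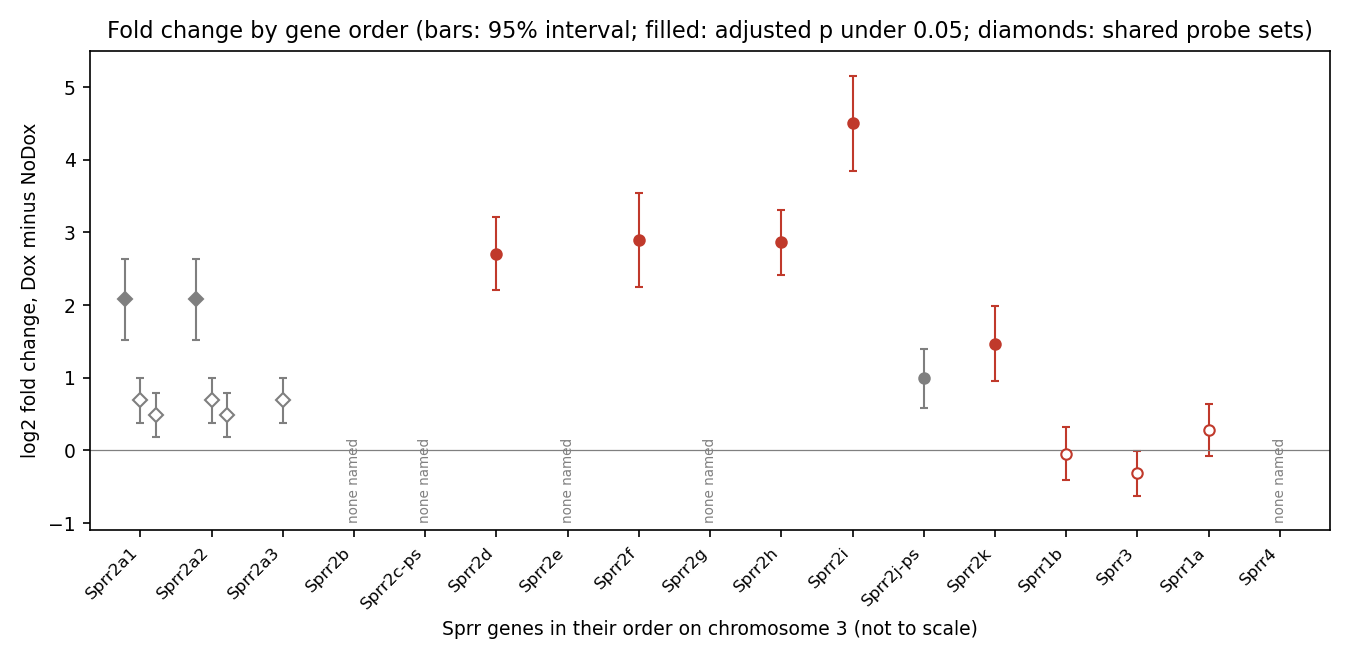
Log2 fold change, Dox minus NoDox (vertical axis), of Sprr probe sets with the 95% interval of the limma fit, against the order of the genes on chromosome 3 (horizontal axis, not to scale). Members are red and other Sprr genes grey, filled symbols passed adjusted p under 0.05, and a diamond is a probe set shared by several genes and drawn at each. The values peak at Sprr2i (4.50) and lie near 0 for Sprr1b, Sprr3 and Sprr1a.

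Most other genes of the cornified envelope did not rise with the Sprr2 genes. Among the envelope partners of the Sprr proteins, 34 of 44 listed genes had a probe set that carries no other symbol, 0 rose in limma and 4 fell. Several of these probe sets, among them those of some Lce genes, lack the plain suffix of a unique design, so they may not be specific to 1 gene. At an unadjusted p under 0.05 limma gave 14 of the 34 partners (41.2%), all with a negative log2 fold change. The share of all genes with 1 probe set each was 17.0% in either direction. A log2 fold change above 0 was seen for 5 of 34 (14.7%), against 42.0% of those genes. The median was -0.33, against -0.08 for 18191 genes with 1 probe set each. Of these genes 1.02% were higher and 0.748% lower at adjusted p under 0.05.

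The 4 that fell were the filament-associated hornerin Hrnr (ratios of 0.247, 0.386 and 0.301 in Dox), the late envelope gene Lce1h (0.375, 0.611 and 0.409), the plakin periplakin Ppl (0.498, 0.617 and 0.520) and sciellin Scel (0.638, 0.630 and 0.580). Their NoDox ratios lay between 0.942 and 1.06, above every Dox ratio. The log2 fold changes were -1.71 for Hrnr (limma adjusted p = 0.00476), -1.14 for Lce1h (0.0398), -0.88 for Ppl (0.0297) and -0.70 for Scel (0.0419). Without NoDox replicate 1 the limma adjusted p was 0.156, 0.338, 0.304 and 0.378, and without NoDox replicate 2 it was 0.138, 0.394, 0.355 and 0.377. The calls of Lce1h, Ppl and Scel were also lost without Dox replicate 1 (limma adjusted p = 0.0812, 0.0671 and 0.0701) and without Dox replicate 3 (0.164, 0.125 and 0.164), with quantile normalization (0.355, 0.430 and 0.547) and with each array's factor divided out (0.0702, 0.0561 and 0.0763). Median centring of the arrays ended those of Lce1h (0.0556) and Scel (0.0691), and the replicate block that of Scel (0.0534). Loricrin (Lor) and involucrin (Ivl) are the main partners of the Sprr proteins in the envelope. They were at -0.07 ± 0.13 and -0.12 ± 0.31 (limma adjusted p = 0.872 and 0.901). Like Krt17 and Pou2f3 below, both were named after their values were seen.

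Of 6 measured transglutaminases, the enzymes that cross-link Sprr proteins, 0 passed limma over all probe sets and 2 had an unadjusted p under 0.05 (33.3%, against 17.0% of all genes). Tgm3 had ratios of 0.478, 0.688 and 0.623 in Dox (log2 fold change -0.76, limma adjusted p = 0.0835). Tgm1 had ratios of 0.638, 0.876 and 0.722 (log2 fold change -0.43, limma adjusted p = 0.272).

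Of 10 measured S100 genes, calcium-binding proteins encoded in the same complex as the Sprr genes, 2 rose and 0 fell. These were S100a8, with ratios of 15.6, 8.54 and 8.66 in Dox (3.42 ± 0.29, limma adjusted p = 0.000891), and its partner S100a9, with 2.58, 2.26 and 1.78 (1.13 ± 0.18, limma adjusted p = 0.0215). Of all genes 1.02% were higher and 0.748% lower at adjusted p under 0.05. An unadjusted limma p under 0.05 was seen for 4 of the 10 S100 genes (40.0%, against 17.0% of all genes). The S100a8 and S100a9 proteins form calprotectin, which neutrophils as well as keratinocytes make. The call of S100a9 was lost without Dox replicate 1 (limma adjusted p = 0.0508), NoDox replicate 1 (0.291) or NoDox replicate 2 (0.300), and with quantile normalization (0.156).

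Keratins of activated keratinocytes rose in the same arrays, 3 of 4, against 1.02% of all genes. Krt16 had ratios of 32.5, 11.8 and 20.3 in Dox (4.33 ± 0.37, limma adjusted p = 0.000893), Krt6b 5.83, 6.04 and 5.65, and Krt6a 3.53, 3.48 and 3.41. Krt16 was highest in Dox replicate 1 and lowest in Dox replicate 2, the order seen for Sprr2i, whereas Krt6a and Krt6b were nearly equal in the Dox arrays. Krt16 lost its call without NoDox replicate 1 (limma adjusted p = 0.0647). Krt17, the list's only member that did not pass, was at -0.49 ± 0.44 (limma adjusted p = 0.684). Its Dox ratios of 0.832, 1.27 and 0.343 lay far apart, so a change is not excluded.

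Of 28 measured regulators of squamous differentiation, 1 rose and 1 fell, against 1.02% and 0.748% of all genes. At an unadjusted p under 0.05 limma gave 13 of the 28 (46.4%, against 17.0% of all genes), in both directions. Pou3f1, a POU-domain factor of suprabasal keratinocytes, had ratios of 2.86, 3.09 and 2.71 in Dox and 0.934 and 1.07 in NoDox (1.53 ± 0.23, limma adjusted p = 0.0195). Elf5, an Ets factor of differentiating epithelia, had ratios of 0.419, 0.540 and 0.442 in Dox and 0.982 and 1.02 in NoDox (-1.11 ± 0.16, limma adjusted p = 0.0141). The call of Pou3f1 was kept without Dox replicate 2 and lost without any other array (limma adjusted p = 0.0517 without Dox replicate 1, 0.0559 without Dox replicate 3, 0.319 without NoDox replicate 1 and 0.244 without NoDox replicate 2). That of Elf5 was lost without Dox replicate 3 (limma adjusted p = 0.0711), NoDox replicate 1 (0.260) or NoDox replicate 2 (0.250). Quantile normalization ended both (limma adjusted p = 0.203 and 0.163). Stat6, which carries the IL-13 signal to the nucleus, was at -0.05 ± 0.13 (limma adjusted p = 0.911), and Pou2f3 at 0.21 ± 0.45 (0.888). The Dox ratios of Pou2f3 were 0.811, 1.62 and 1.14, so a change of Pou2f3 is not excluded.

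**Figure D3:**
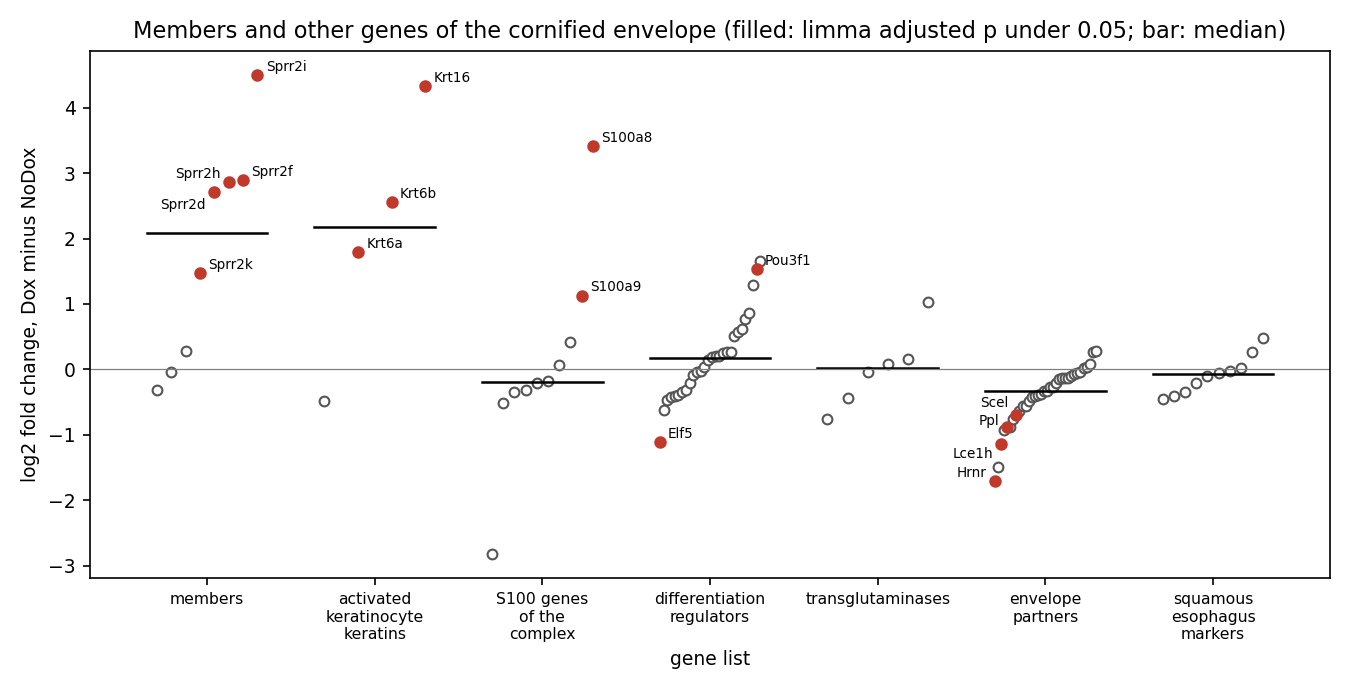
Log2 fold change, Dox minus NoDox (vertical axis), of each measured member and of each measured gene of 6 other lists (horizontal axis), with a bar at the list's median. Filled points passed limma adjusted p under 0.05 and are named. The 5 risen Sprr2 members share their range with Krt16, Krt6b, Krt6a, S100a8 and Pou3f1, while 5 of 34 envelope partners lie above 0.

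The genes whose 5 log2 ratios lay nearest to those of Sprr2i, the member of smallest p, were Krt16 (Euclidean distance 0.44 over the 5 arrays, on the log2 scale), Umod (0.70), Rnase2b (0.79), Zfp383 (0.93) and Rnase2a (0.93). Umod and Zfp383 did not pass the test themselves (limma adjusted p = 0.0504 and 0.0812). Over 5 arrays in 2 groups, a small distance is first of all a fold change of similar size.

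Markers of the tissue were read beside these results. Of 10 measured markers of squamous esophagus, among them Krt4, Krt13, Krt5 and Krt14, 0 passed limma and 4 had an unadjusted p under 0.05 (40.0%, against 17.0% of all genes). Among those 4, Krt14 was higher in Dox (log2 fold change 0.48), and Krt78, Trp63 and Krt15 were lower (-0.45, -0.34 and -0.41). The ratios of the 10 markers summed to 9.13 to 10.5 in the Dox arrays and 9.67 to 10.3 in the NoDox arrays, a sum in which rises and falls can cancel. Of 4 epidermis markers and 10 glandular stomach markers 0 passed, with an unadjusted limma p under 0.05 for 1 and 0. Of 7 lung markers 5 rose, against 1.02% of all genes. The ratios of all 7 summed to 23.0 to 59.5 in Dox and 6.63 to 7.37 in NoDox. Dox replicate 3 was highest for each of the 5 that rose. Of 8 skeletal muscle markers 4 fell, against 0.748% of all genes. The ratios of all 8 summed to 3.03 to 3.68 in Dox and 7.41 to 8.59 in NoDox. The 4 were Myh7, Myl2, Tnnc1 and Myh4 (log2 fold change -4.04, -5.96, -2.96 and -3.06). Myh2 was at -2.29 (limma adjusted p = 0.201), while Acta1, Ckm and Myh1 were at -0.08, -0.15 and -0.13. The part of lung and muscle tissue in the Sprr values was not tested. Probe sets with a value at the floor of 0.01 were left out, so no measured marker could be listed at 0. Single squamous esophagus and muscle markers were named after their values were seen.

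Over all probe sets limma called 275 higher and 247 lower. Median centring of the arrays made the split 312 to 152, and it was 63 to 17 with quantile normalization. Dividing out each array's factor gave 374 to 138. This last scaling also moved the median log2 fold change of all probe sets from -0.08 to 0.04. The Sprr2 members rose at every one of these scalings except Sprr2k with quantile normalization. All 5 lost their calls when the variance trend on the signal level was left out or taken on the mean log2 ratio.

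**Figure D4:**
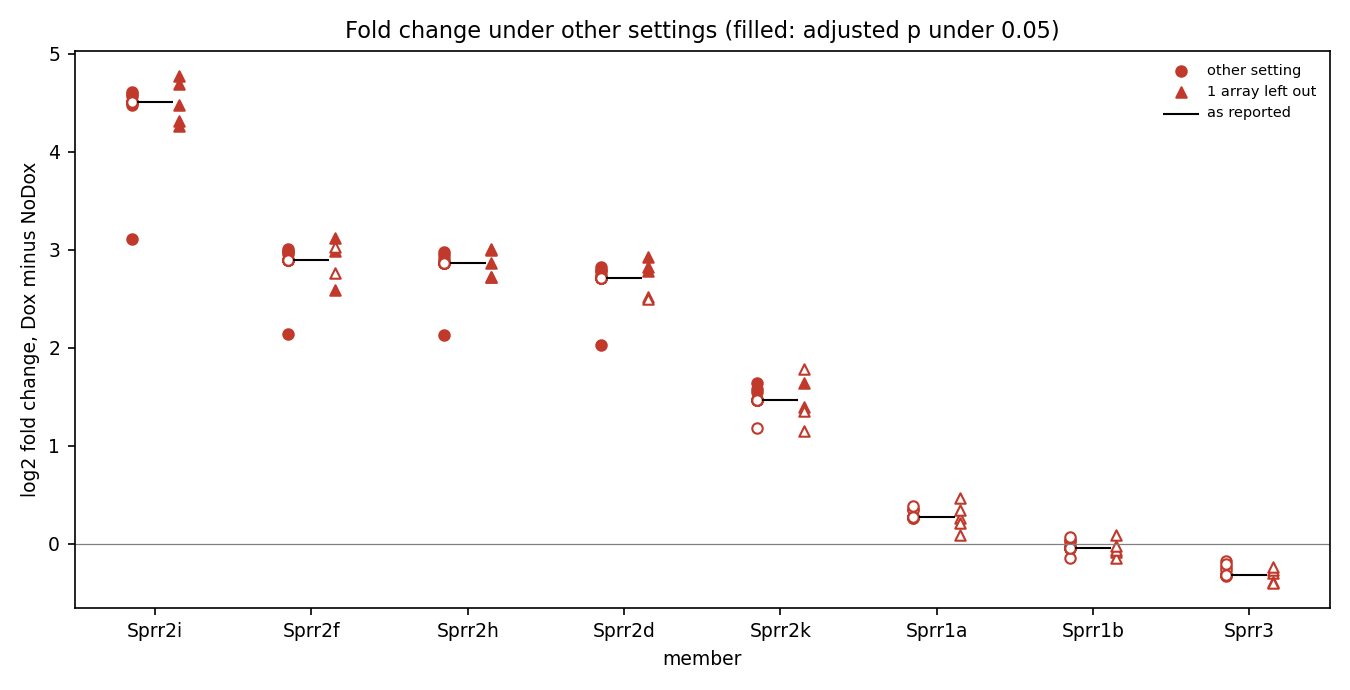
Log2 fold change, Dox minus NoDox (vertical axis), of each member (horizontal axis) as reported (line), under other settings (circles) and with 1 array left out (triangles). Filled symbols passed limma adjusted p under 0.05. Sprr2i stays between 3.11 and 4.77, Sprr3 between -0.39 and -0.18, and the lowest circle of each Sprr2 member is quantile normalization.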

How the data were processed

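RNA of whole esophagus was hybridised to 5 Mouse Genome 430 2.0 arrays, and samples were grouped by the diet in the labels. Signals came from MAS 5.0 and were scaled in GeneSpring 7.3.1, per the submitters' processing notes. The deposited values are ratios, and the 2 NoDox ratios sum to 2 within 0.0001 in 45099 of 45101 probe sets, so the authors divided each probe set by its NoDox mean. Left out were 64 control probe sets and 3 with values at the floor of 0.01, which left 45034.

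Log2 ratios were fitted with limma 3.58.1 in R 4.3.3 (lmFit, eBayes), Dox minus NoDox, with a variance trend on the signal level and Benjamini-Hochberg adjustment over all 45034 (threshold 0.05). Levels were recovered as whole signal steps times a factor per array (relative tolerance 3e-07) in 40028 probe sets (88.8%), against 8 of 4000 shuffled probe sets (0.2%). None of the members' levels was recovered, and they entered the trend at a lower bound. The variance borrowed from other probe sets carried 6.23 degrees of freedom, against 3 from the arrays of each probe set. Arrays have no read depth. Symbols came from the platform annotation, with 1 in 34945 probe sets, several in 932 and none in 9160. A listed gene was represented by 1 probe set that carries no other symbol. Scripts were tested on simulated data.

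Members and lists were chosen with earlier results of these data known. Named are all Sprr probe sets, the listed genes that passed (in a list without one, the 2 of smallest p), Stat6 and the 5 genes nearest to the member of smallest p. Motifs were searched on both strands of the 250 bases before each gene start, and identity came from global alignment in Biopython 1.88. Alternatives changed the scaling, the trend, an offset, the filter on levels, the features tested, the variance model, array weights, a replicate block, the threshold and the arrays used. The block, with replicate numbers shared by the groups, was not the main fit, since the labels give no batch. The deviations of same-numbered arrays correlated at 0.0113 and 0.0154. These values cannot decide on a block, since the deviations of the 2 NoDox arrays mirror each other (correlation -1).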

Additional observations from a re-analysis of the deposited data

How the results depend on the processing

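Dividing out the array factor and setting unrecovered levels at the search limit were chosen after seeing the data, and the other alternatives were listed earlier. The 5 risen members became 0 with no variance trend (5 of 8 at an unadjusted p under 0.05 in limma) and 0 with the trend on the mean log2 ratio (4 of 8). Leaving out 1 array gave 2 to 5, with 2 without NoDox replicate 1 and 3 without NoDox replicate 2. Sprr1b, at -0.04, turned to 0.040 with median centring, 0.030 with quantile normalization, 0.068 with the array factor divided out and 0.095 without Dox replicate 2 (leaving out 1 array gave -0.15 to 0.095). Over all probe sets, 275 higher became 63 with quantile normalization, 6 with no trend, 0 with the trend on the mean log2 ratio, 437 with array weights, 492 at adjusted p under 0.1, and 35 to 378 with 1 array left out. The 247 lower became 152 with centring, 17, 0 and 0 with quantile normalization and those 2 trends, 490 with array weights, 138 with the array factor divided out, 538 at adjusted p under 0.1, and 4 to 541 with 1 array left out. At an unadjusted p under 0.05 limma gave 6365 probe sets, 4513 with no trend and 4136 with the trend on the mean log2 ratio. Of the 82 measured envelope partners, transglutaminases, S100 genes, regulators and keratins, 6 were higher and 5 lower, which became 0 and 0 with either of those trends. Their higher count was 3 to 6 with 1 array left out (3 without NoDox replicate 1). Their lower count was 3 with centring, 1 with quantile normalization, 8 with array weights, 2 with the array factor divided out and 0 to 11 with 1 array left out. The causes were not tested. Quantile normalization lowers the large values by construction, since a NoDox ratio cannot exceed 2.

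With the replicate number as a block (replicate block), 440 probe sets were higher and 505 lower, and 5 members rose. The arrays share only a number, and Dox replicate 3 has no partner. Of those 82 genes, 6 were then higher and 7 lower. Among the Sprr probe sets and the genes of these 5 lists that passed, Scel lost its call under the block (limma adjusted p = 0.0534) and the others kept theirs, and the shared Sprr2a probe set 1439016_x_at gained one (0.0380). Lung and muscle markers were not followed under the alternatives.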
